A study of Mus musculus with 4 samples.

Results

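The IL-6 family and its signalling genes were examined in mouse embryonic fibroblasts (MEFs) as 9 members, chosen by gene symbol: the ligands Il6, Il11, Lif and Clcf1, the receptors Il6st, Osmr and Il11ra1, the transcription factor Stat3 and the inhibitor Socs3. They are 9 of the 12616 genes analysed, and they carry 21 of the 45281 probes on the array. The family was singled out because Il11 had moved in opposite directions in Rb-deleted and ΔCdk Rb-HA MEFs, so the ratios of Il11 on those arrays are given as a description and support nothing further. Whole-genome Illumina BeadChips were hybridised with total RNA from 4 cultures of FVB;129 MEFs that carry a floxed Rb gene, 1 array per condition. Parental MEFs received solution without TAT-Cre, then media alone. Rb-deleted MEFs received TAT-Cre, a cell-permeable recombinase that deletes Rb, then media alone. WT Rb-HA MEFs received TAT-Cre and the wt RB retrovirus, which encodes wild type Rb, while ΔCdk Rb-HA MEFs received TAT-Cre and the dCDK RB retrovirus, which encodes an Rb that Cdks cannot phosphorylate. Each treatment was given 2 times for 1 h, 3 h apart. As the study describes, every culture was also arrested by contact, released and treated with doxorubicin, a DNA-damaging topoisomerase II inhibitor, which the array labels do not mention. There was no array of TAT-Cre-treated cells with a virus lacking Rb, so infection and the Rb it delivered cannot be told apart, and neither can TAT-Cre exposure and loss of Rb.

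Cytokines of the IL-6 family share gp130, the signalling receptor encoded by Il6st. IL-6 and IL-11 bind private receptors without catalytic activity (Il6ra, Il11ra1) that recruit gp130 pairs, whereas LIF and oncostatin M join gp130 to the LIF or oncostatin M receptor (Lifr, Osmr). Bound receptors activate Jak kinases, which phosphorylate STAT3, and STAT3 induces Socs3, which shuts gp130 signalling off. Fibroblasts are a known source of IL-6, LIF and IL-11 in damaged and inflamed tissue.

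Each condition has 1 array, so differences could not be set against the spread between replicates and were not tested. The error after a ratio is a bead standard error (SE), which covers the scatter of a probe's beads on an array but not how cultures vary. Intensities are the deposited linear values, and a log2 ratio compares normalized signals of the same probe. A gene counted as higher or lower when its ratio passed 1.6-fold (0.68 on the log2 scale), the study's filter. A probe was detected when its detection p-value was below 0.01, and 15 of the 21 member probes were detected on all 4 arrays, at least 1 for each of the 9 genes. Of the other probes, 1 was detected on the parental array alone and 5 on none. Each member probe was read on 26 to 61 beads per array.

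Mean intensity over all probes was 336 to 346 on the 4 arrays, and 15950 to 16740 probes were detected. Rb1, the deleted gene, had an intensity of 543 at transcript position 4421 on the parental array and 160 to 181 on the TAT-Cre arrays. The study reports Rb-HA protein at physiologic levels in the infected MEFs, and whether this probe reads the viral Rb mRNA was not tested. All 10 fibroblast marker genes, among them Col1a1, Vim and Pdgfra, were detected on every array. Of these, 7 were below parental in Rb-deleted, 5 in WT Rb-HA and 7 in ΔCdk Rb-HA MEFs. Their median log2 ratios were -0.15, -0.01 and -0.35 in that order. Of 10 leukocyte markers 7 were detected on every array, with a summed intensity of 9055 in parental MEFs and 4256 to 5257 in the other MEFs, and all 7 were below parental on each TAT-Cre array. Ptprc, the pan-leukocyte marker, was not detected on any array. Of the epithelial markers Krt8, Krt18 and Krt19 were detected on every array, with Epcam and Cldn4 on none, and of 6 endothelial markers Pecam1, Cdh5, Kdr, Tek and Tie1 were undetected. The remaining endothelial marker, Esam, was detected near background on 2 arrays, at 58.6 in parental and 58.5 in ΔCdk Rb-HA MEFs. Fewer cells of a type and less RNA per cell cannot be told apart in such bulk RNA.

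Among the ligands, Il11 differed most between the arrays. IL-11 is a cytokine of stromal cells that acts on megakaryocytes, bone and fibroblasts themselves. The single Il11 probe, at position 901 of its transcript on chromosome 7, had an intensity of 1572 in parental MEFs, 785 after Rb deletion, 1304 with WT Rb-HA and 2400 with ΔCdk Rb-HA. Signal was therefore lowest without Rb, close to parental with WT Rb-HA, and highest with ΔCdk Rb-HA. Compared to parental, the log2 ratio of Il11 was -0.97 (SE 0.09) after Rb deletion, -0.21 (0.10) with WT Rb-HA and 0.69 (0.11) with ΔCdk Rb-HA. The first and last of these passed 1.6-fold in opposite directions, although the last did so narrowly, at 1.62-fold. In all, 12 of the 12616 genes, or 0.0951%, were lower in Rb-deleted and higher in ΔCdk Rb-HA than in parental MEFs by this filter, with Il11 counted among them.

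Compared directly with Rb-deleted MEFs, Il11 was 3.17-fold higher in ΔCdk Rb-HA MEFs, a log2 ratio of 1.67 (SE 0.10), and 1.70-fold higher in WT Rb-HA MEFs, a log2 ratio of 0.76 (0.09). Il11 was chosen by its values on these arrays, so its rank here is a description. Of the 12616 genes, 20 had a larger ratio of ΔCdk Rb-HA to Rb-deleted. Between the infected cultures Il11 was 1.87-fold higher where Rb could not be phosphorylated, a log2 ratio of 0.90 (0.11), and 36 genes had a larger ratio. Each step in the rising order of Rb-deleted, WT Rb-HA, parental and then ΔCdk Rb-HA MEFs was larger than 2 bead SE, with the step from WT Rb-HA to parental the smallest at 0.21 (0.10).

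**Figure D1:**
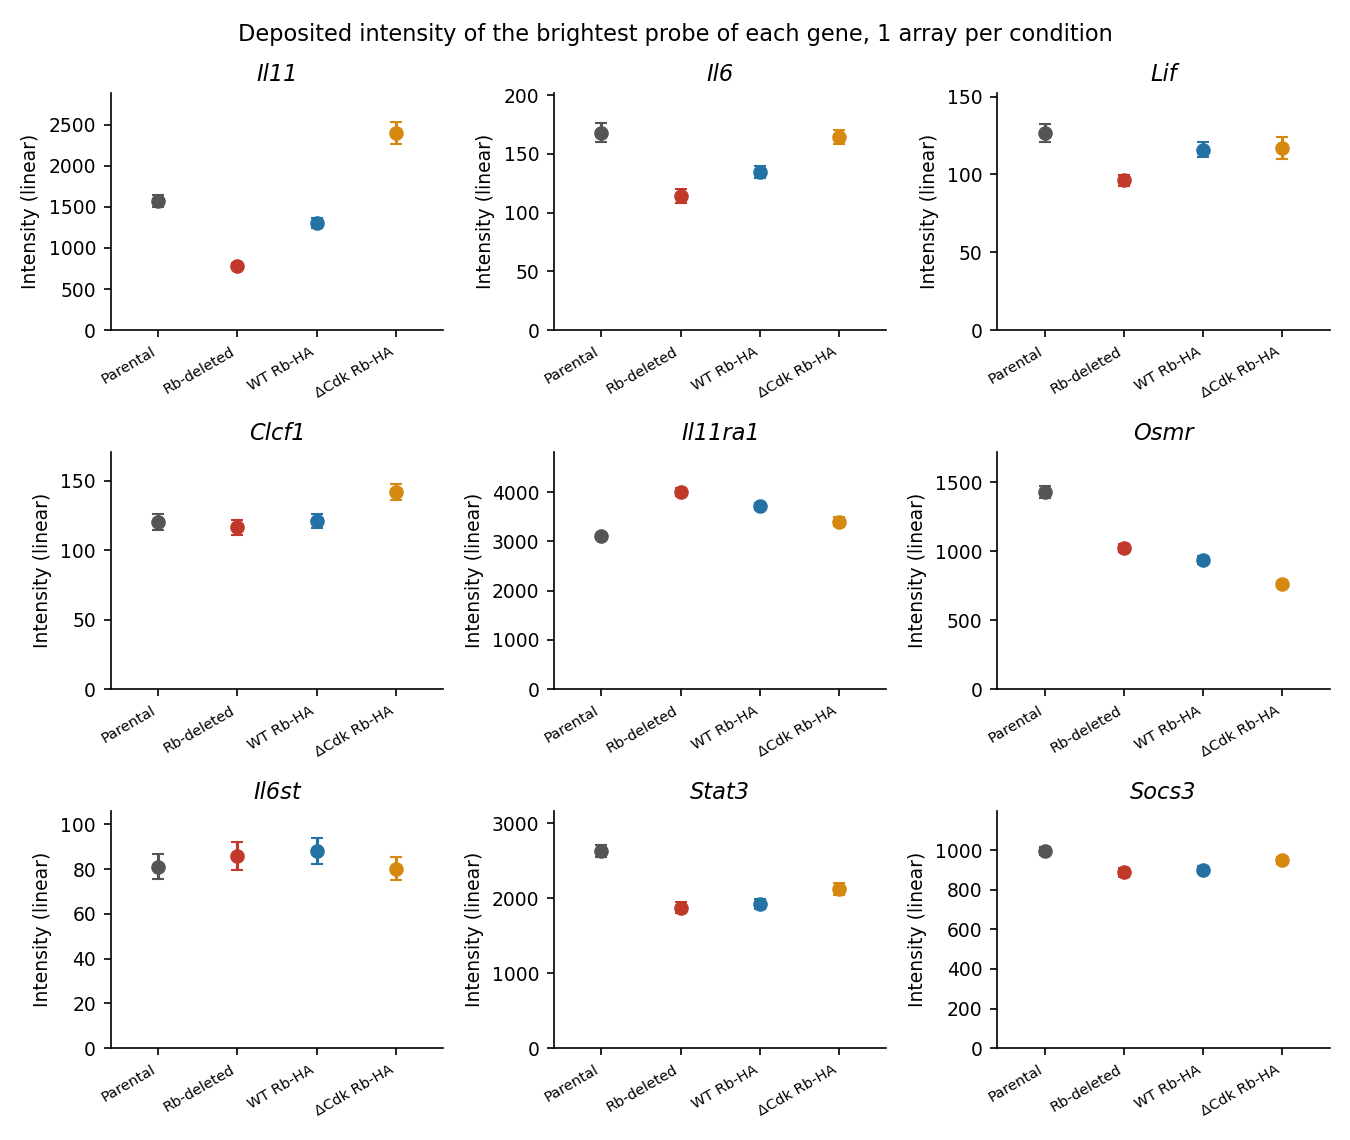
Deposited linear intensity (y axis, from 0) of the brightest probe of each of the 9 genes on the 4 arrays (x axis), with bars of 1 bead standard error. Il11 spans 785 in Rb-deleted to 2400 in ΔCdk Rb-HA MEFs, Osmr falls from 1430 to 763 across the arrays as drawn, and Socs3 stays between 888 and 996.

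Il6 encodes the founding cytokine of the family, a driver of the acute-phase response. Its probe at position 946, on chromosome 5, had an intensity of 168 in parental MEFs, 114 after Rb deletion, 135 with WT Rb-HA and 164 with ΔCdk Rb-HA, over a background near 40 (median of undetected probes 39.2 to 40.5). The log2 ratio to parental was -0.64 (SE 0.12), -0.37 (0.11) and 0.02 (0.10) on the TAT-Cre arrays in that order. None of these passed 1.6-fold. Il6 was lowest on the same array as Il11, and ΔCdk Rb-HA exceeded Rb-deleted MEFs by 0.67 (0.11) on the log2 scale, just inside the filter at 1.59-fold. Parental and ΔCdk Rb-HA MEFs differed in Il6 by less than 2 bead SE, whereas in Il11 they differed by 0.69.

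LIF maintains mouse embryonic stem cells and is induced by injury in many tissues. Of the 5 Lif probes on chromosome 11, those at positions 3050 and 3454 of one transcript were detected throughout. Intensity at position 3050 was 127 in parental MEFs, 96.2 after Rb deletion, 116 with WT Rb-HA and 117 with ΔCdk Rb-HA, for log2 ratios of -0.47 (SE 0.10), -0.14 (0.11) and -0.11 (0.14). Intensity at position 3454 was 117, 80.5, 87.8 and 84.6 on the same arrays, for log2 ratios of -0.68 (0.17), -0.56 (0.16) and -0.61 (0.12). Both probes were lowest in Rb-deleted MEFs, but they differed on the infected cultures, where the first lay near parental and the second did not.

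A further Lif probe, at position 160 of another transcript, was detected on the parental array alone, with an intensity of 68.0 there. It was at least 1.44-fold lower after Rb deletion, 1.32-fold lower with WT Rb-HA and 1.39-fold lower with ΔCdk Rb-HA, where the dim array stands at the higher of its own value and the lowest value of any detected probe. The probe listed at position 210 is complementary to it over 49 bases, so that this pair reads opposite strands of the same stretch, and it was not detected on any array. Lif at position 5786 was also undetected throughout.

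Clcf1 encodes a B-cell and neuron survival factor that signals through gp130, LIFR and CNTFR. The Clcf1 probe at position 213, on chromosome 19 per the annotation of a neighbouring probe, had intensities of 121 in parental MEFs, 117 after Rb deletion, 121 with WT Rb-HA and 142 with ΔCdk Rb-HA. Its log2 ratio to parental was -0.04 (SE 0.12), 0.02 (0.11) and 0.33 (0.11), so that ΔCdk Rb-HA was the array above the rest. Probes at positions 423 and 438 share 34 bases, yet they gave log2 ratios of 0.34 (0.14) and -0.17 (0.15) in WT Rb-HA MEFs, and 0.51 (0.13) and 0.15 (0.16) in ΔCdk Rb-HA MEFs. Readings of Clcf1 thus varied between overlapping probes by as much as they varied between cultures.

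Among the receptors, Osmr differed most from parental. Osmr, the oncostatin M receptor subunit, was read by its probe at position 4341 on chromosome 15, with intensities of 1430 in parental MEFs, 1022 after Rb deletion, 935 with WT Rb-HA and 763 with ΔCdk Rb-HA. Parental MEFs were the highest and ΔCdk Rb-HA MEFs the lowest. The log2 ratio to parental was -0.44 (SE 0.06), -0.57 (0.07) and -0.83 (0.06), and the last passed the filter at 1.77-fold lower. Rb-deleted and WT Rb-HA MEFs differed by 0.13 (0.07), less than 2 bead SE. Osmr probes at positions 910 and 1589, designed on other cDNA clones, were at background on all 4 arrays.

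Il11ra1 encodes the private receptor of IL-11. Its probe at position 1630, on chromosome 4, had intensities of 3103 in parental MEFs, 4003 after Rb deletion, 3709 with WT Rb-HA and 3401 with ΔCdk Rb-HA. Among the TAT-Cre arrays this is the reverse of the order of Il11, with the receptor highest where the ligand was lowest. Log2 ratios to parental were 0.44 (SE 0.04), 0.32 (0.04) and 0.19 (0.05), none past 1.6-fold. The probe at position 1586 gave smaller ratios of 0.14 (0.06), 0.19 (0.06) and 0.06 (0.07), and there WT Rb-HA was highest. Mouse has a near-identical paralog, Il11ra2, for which the array lists no probe, and signal from its transcripts at these probes was not tested.

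Il6st, the gp130 subunit common to the family, had an intensity of 81.2 in parental MEFs, 86.0 after Rb deletion, 88.1 with WT Rb-HA and 80.2 with ΔCdk Rb-HA at position 5074 on chromosome 13. Its log2 ratios to parental, 0.16 (SE 0.20), 0.15 (0.19) and -0.02 (0.19), were all smaller than 1 bead SE. The probe at position 20 of its own source sequence was undetected on all 4 arrays. A change in gp130 mRNA smaller than about 2 bead SE was not measurable with this dim probe.

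Downstream, Stat3 had its brightest probe at position 3006 on chromosome 11, with intensities of 2631 in parental MEFs, 1874 after Rb deletion, 1924 with WT Rb-HA and 2125 with ΔCdk Rb-HA. The log2 ratios to parental of -0.45 (SE 0.07), -0.41 (0.06) and -0.25 (0.07) were all below 0 and inside the filter. The probes at 2901 and 3477 gave smaller decreases in Rb-deleted MEFs, at -0.11 (0.10) and -0.35 (0.12), and values of 0.03 (0.09) and 0.09 (0.12) in ΔCdk Rb-HA MEFs. Of the 3 probes, all were lowest in Rb-deleted MEFs and highest, among the TAT-Cre arrays, in ΔCdk Rb-HA MEFs.

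Socs3, the feedback inhibitor whose mRNA is a common readout of STAT3 activity, had intensities of 996 in parental MEFs, 888 after Rb deletion, 901 with WT Rb-HA and 949 with ΔCdk Rb-HA at position 2371. Log2 ratios to parental were -0.11 (SE 0.05), -0.08 (0.04) and 0.03 (0.04). No step between neighbours in the order of its 4 arrays was larger than 2 bead SE. Its largest difference between any pair of arrays, 0.14 (0.05) between ΔCdk Rb-HA and Rb-deleted MEFs, was larger than 2 bead SE. Il11 differed by 1.67 across that pair.

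**Figure D2:**
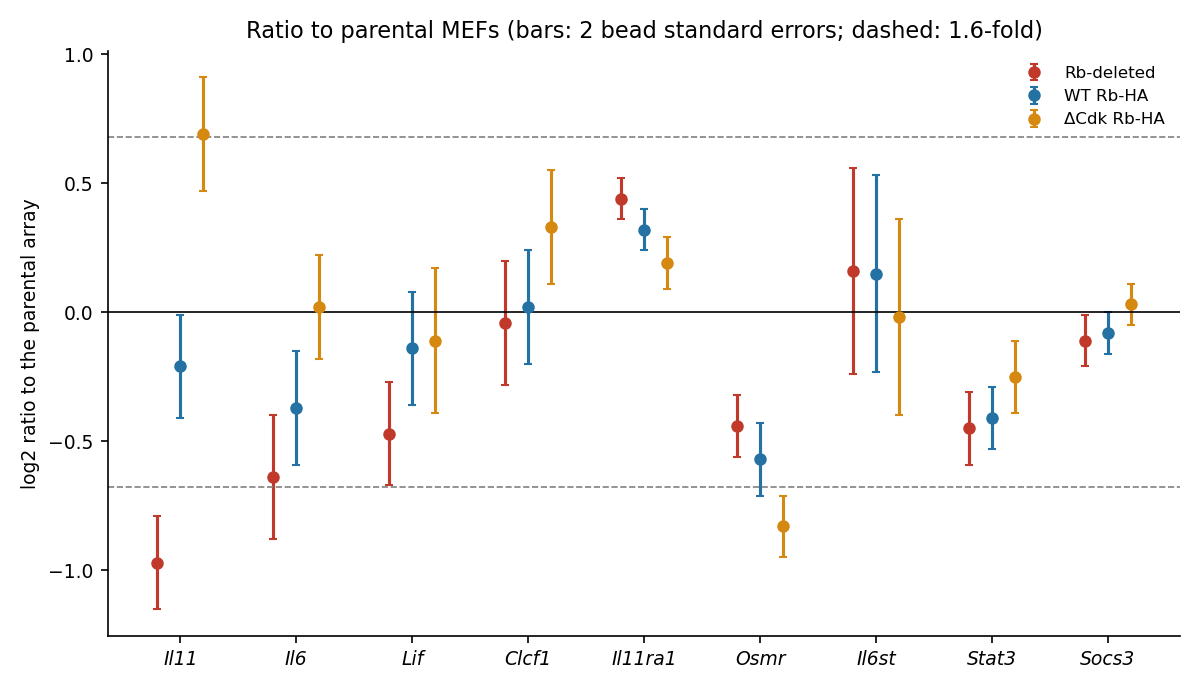
Log2 ratio to the parental array (y axis) of the brightest probe of each of the 9 genes (x axis) on the 3 TAT-Cre arrays, with bars of 2 bead standard errors and dashed lines at 1.6-fold. Il11 passes the lower line at -0.97 in Rb-deleted MEFs and the upper at 0.69 in ΔCdk Rb-HA MEFs, and Osmr passes the lower line at -0.83 in ΔCdk Rb-HA MEFs.

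Counted by the brightest probe of each member, 1 of the 9 genes passed 1.6-fold in Rb-deleted compared to parental MEFs, Il11, which was lower. Of all genes analysed 5.12% passed in that comparison, 2.14% higher and 2.98% lower. No member passed with WT Rb-HA compared to parental (3.34% of all genes, 0.888% higher and 2.46% lower). With ΔCdk Rb-HA compared to parental 2 members passed, Il11 higher and Osmr lower (5.87% of all genes, 2.58% higher and 3.30% lower). In each comparison without the parental array the 1 member past the filter was Il11, always higher. Of all genes 1.02% passed in WT Rb-HA over Rb-deleted MEFs (0.539% higher, 0.484% lower), 4.26% in ΔCdk Rb-HA over Rb-deleted MEFs (2.31% higher, 1.95% lower) and 1.85% in ΔCdk Rb-HA over WT Rb-HA MEFs (0.840% higher, 1.01% lower). The median log2 ratio of the 9 members to parental was -0.44 after Rb deletion, -0.14 with WT Rb-HA and 0.02 with ΔCdk Rb-HA, beside 0.02, 0.01 and -0.01 over all genes. These ratios share the parental array. Most of the family thus lay inside the filter, with Il11 the exception in 5 of the 6 comparisons and Osmr in 1. Because Il11 was chosen by its values in Rb-deleted and ΔCdk Rb-HA MEFs, the counts that include it are a description.

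Across the 3 TAT-Cre arrays the values of the brightest probes followed the same sequence of arrays in either of its directions, although many steps were small. Il6, Il11, Lif, Clcf1, Stat3 and Socs3 were lowest in Rb-deleted and highest in ΔCdk Rb-HA MEFs, with WT Rb-HA between. This order was held by 21.2% of all genes analysed. Lif, Clcf1, Stat3 and Socs3 each had a step smaller than its bead SE, so the place of WT Rb-HA was not resolved for them. With median scaling, Socs3 in WT Rb-HA over Rb-deleted MEFs was -0.01. Il6st, Osmr and Il11ra1, the 3 receptors, were in the reverse order, held by 26.4% of all genes, although for Il6st no step exceeded its bead SE. Both steps were larger than 2 bead SE for Il6 and Il11 in the first order (3.61% of all genes) and for Il11ra1 in the second (3.54%). This order was noticed in the data, and the second probes of Lif, Clcf1 and Il11ra1 did not all follow it. Il11 was chosen for its opposite directions in Rb-deleted and ΔCdk Rb-HA MEFs. Its ΔCdk Rb-HA signal above Rb-deleted was thus fixed by that choice, and counting Il11 lends the order no support.

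**Figure D3:**
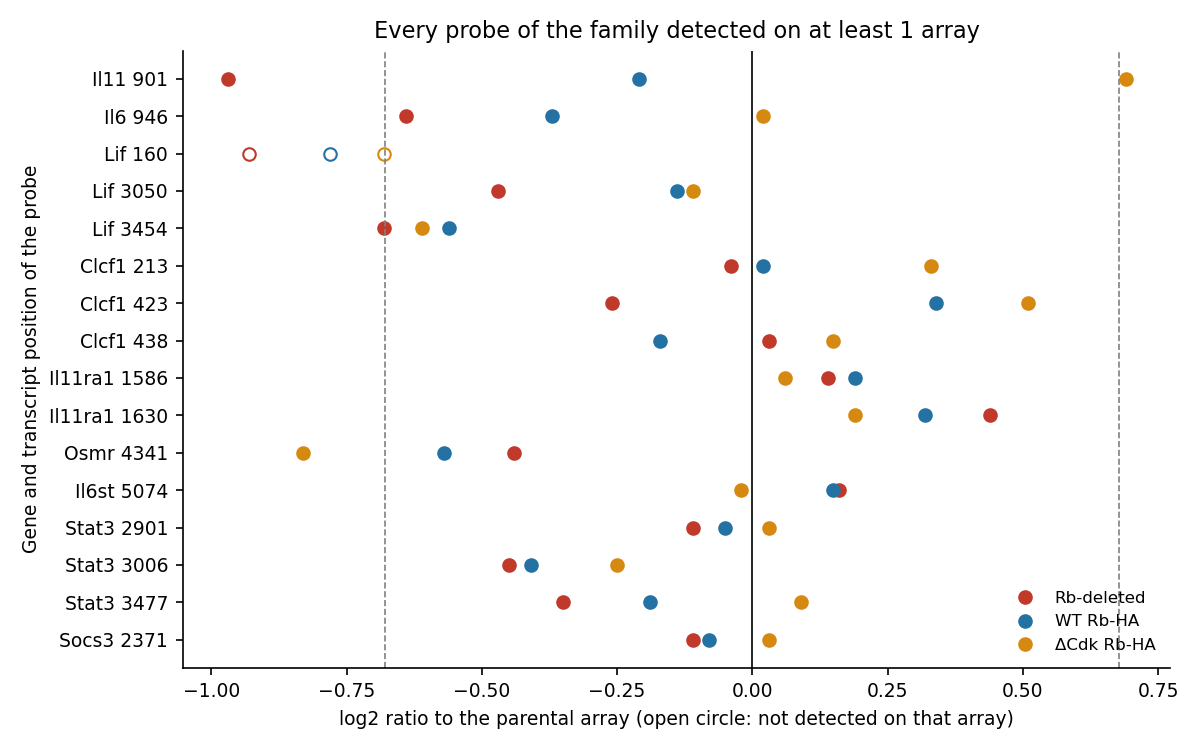
Log2 ratio to the parental array (x axis) of the 16 member probes detected on at least 1 array (y axis, gene and transcript position), with open circles where the probe was not detected on that array and dashed lines at 1.6-fold. The Stat3 probes keep one order of the arrays, while Lif at 3050 and 3454 differ in the infected cultures and Clcf1 at 423 and 438 differ in WT Rb-HA MEFs.

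Genes whose pattern over the 3 log2 ratios to parental lay nearest to that of Il11, by Euclidean distance, were Mmp10, Ptpn22, Fbxl13, 2610001E17Rik and LOC100044411. Mmp10 encodes stromelysin 2, a secreted matrix protease. Its intensity was 1365 in parental MEFs, 683 after Rb deletion, 1168 with WT Rb-HA and 1957 with ΔCdk Rb-HA, and its log2 ratios of -0.98, -0.18 and 0.60 lay at a distance of 0.101 from those of Il11. Ptpn22, a tyrosine phosphatase of lymphoid cells, followed at 0.279, with ratios of -0.79, -0.03 and 0.79. Among the genes nearest to Il6 were Upk1b (distance 0.0822), Hspa1b (0.115), 2310009E04Rik (0.120) and Ccng2 (0.121). Of these, Upk1b, an uroplakin of bladder epithelium, had ratios of -0.71, -0.40 and 0.06.

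Promoters of the 3 ligands whose brightest probe was lowest in Rb-deleted MEFs by more than 2 bead SE (for Lif the probe at position 3050 and not that at 3454), and of Mmp10, the gene nearest to Il11, are shown to place the AP-1 motif in them. AP-1 dimers of Jun and Fos proteins are textbook activators of Il11, Il6 and matrix protease genes. Jun had log2 ratios to parental of -0.14 (SE 0.06) in Rb-deleted, -0.16 (0.06) in WT Rb-HA and -0.16 (0.06) in ΔCdk Rb-HA MEFs. Those of Fos were -0.20 (0.04), -0.01 (0.05) and -0.22 (0.04) on the same arrays. A part of AP-1 in the pattern of Il11 was not tested. The sequences are RefSeq's, of build GRCm38.p6, 250 bases up to the annotated start, on the gene's strand from 5′ to 3′. Capitals mark TGACTCA or its reverse complement TGAGTCA, the AP-1 motif.
Il11, chr7:4778142-4778391, minus strand: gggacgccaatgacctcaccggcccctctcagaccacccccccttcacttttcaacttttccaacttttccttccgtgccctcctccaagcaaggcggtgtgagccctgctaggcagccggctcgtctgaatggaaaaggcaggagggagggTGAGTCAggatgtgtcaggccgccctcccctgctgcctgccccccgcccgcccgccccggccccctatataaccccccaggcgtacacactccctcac
Il6, chr5:30012864-30013113, plus strand: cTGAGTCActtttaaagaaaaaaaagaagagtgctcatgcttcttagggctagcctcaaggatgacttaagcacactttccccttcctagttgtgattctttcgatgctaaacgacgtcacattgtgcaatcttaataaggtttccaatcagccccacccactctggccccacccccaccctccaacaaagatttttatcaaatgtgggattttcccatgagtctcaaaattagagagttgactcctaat
Lif, chr11:4257318-4257567, plus strand: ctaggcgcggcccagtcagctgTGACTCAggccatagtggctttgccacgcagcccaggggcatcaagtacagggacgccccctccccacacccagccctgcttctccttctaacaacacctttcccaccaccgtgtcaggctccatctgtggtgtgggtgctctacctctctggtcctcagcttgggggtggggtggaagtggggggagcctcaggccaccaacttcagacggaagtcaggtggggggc
Mmp10, chr9:7502092-7502341, plus strand: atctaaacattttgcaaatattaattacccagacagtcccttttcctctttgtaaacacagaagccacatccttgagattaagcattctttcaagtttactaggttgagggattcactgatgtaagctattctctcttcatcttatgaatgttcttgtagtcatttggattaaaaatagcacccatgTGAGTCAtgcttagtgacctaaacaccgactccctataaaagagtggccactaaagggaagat

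The motif began 98 bases before the start of Il11, 249 before that of Il6, 228 before that of Lif and 63 before that of Mmp10. RefSeq annotates a second Il11 start upstream, chr7:4782858-4783107, whose window does not hold these letters. Of the 8 members with a window in the table, Il6, Il11 and Lif held the motif, beside 5.16% of 27025 genes with such windows. The motifs were chosen after the values were seen, and Il11 by its own values, so this share is a description. Mmp10 was shown because its values lay nearest to those of Il11. Clcf1, the other ligand, had no window, so no further ligand was read for the motif. The windows of Il6st, Osmr, Il11ra1, Stat3 and Socs3 did not hold it. For comparison, the palindromic STAT motif TTCNNNGAA was in the window of Socs3 alone among the members (8.13% of genes), and the E2F motif TTTNNCGC, searched on both strands like the others, was in none (4.94% of genes). None of the 3 motifs contains another, and a match is a run of letters rather than a measured site.

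The rest of the pathway was read from 6 further lists of 74 genes, of which 55 were analysed. Of the other ligands, Cntf, Ctf2, Osm, Il27 and Il31 were undetected. The mRNA of oncostatin M, the ligand of Osmr, was therefore not detected in any of the cultures, and the protein was not measured. Ebi3, a subunit of IL-27, had a log2 ratio of -0.55 (0.16) in Rb-deleted MEFs and was at least 1.51-fold lower in ΔCdk Rb-HA MEFs, where it was undetected. Ctf1, the gene of cardiotrophin 1, was above parental on all 3 arrays, at 0.61 (0.09), 0.56 (0.14) and 0.39 (0.11).

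Among the other receptors Il6ra, Lifr, Il27ra and Il31ra were analysed, and none passed 1.6-fold against parental. Il6ra, the private IL-6 receptor, had intensities of 160.3 in parental MEFs, 182 after Rb deletion, 167 with WT Rb-HA and 120.1 with ΔCdk Rb-HA. Its log2 ratio to parental was 0.23 (SE 0.08), 0.09 (0.09) and -0.47 (0.08). Among the TAT-Cre arrays Il6ra was highest in Rb-deleted and lowest in ΔCdk Rb-HA MEFs. The difference between them, -0.70 (0.08), passed the filter, beside 1.95% of all genes lower in that comparison. Il31ra, a subunit of the IL-31 receptor, was undetected in ΔCdk Rb-HA MEFs and at least 1.61-fold lower there than in Rb-deleted MEFs. Its intensities on these arrays, 52.0 and 73.9, were near background. Lifr did not follow this order, with log2 ratios to parental of -0.11 (0.14) after Rb deletion and 0.11 (0.14) with WT Rb-HA, and it was also undetected with ΔCdk Rb-HA. Il27ra lay within 0.25 of parental on each array.

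Among the kinases, adaptors and other STATs, 8 genes were analysed. Stat5a, a transcription factor of cytokine and growth hormone signalling, was lower past the filter in ΔCdk Rb-HA MEFs, at -0.73 (0.10). The Jak kinases stayed inside it, with Jak1 at -0.51 (0.10), -0.48 (0.09) and -0.53 (0.10) and Jak2 at -0.46 (0.07), -0.32 (0.06) and -0.50 (0.07). Jak1, Jak2, Tyk2 and the brightest Stat3 probe were all below parental on each of the 3 arrays, and the leukocyte markers above were too. In ΔCdk Rb-HA MEFs the Stat3 probes at positions 2901 and 3477 lay at 0.03 (0.09) and 0.09 (0.12). The part of leukocyte RNA in these values was not tested.

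Of 5 analysed inhibitors, Ptpn6, a phosphatase of blood cells, was lower on every TAT-Cre array, at -0.76 (SE 0.13), -1.01 (0.14) and -1.01 (0.13), and its intensity fell from 93.6 in parental to 58.0 to 64.0 on those arrays. Leukocyte markers moved with it, with medians of -0.94, -1.13 and -1.02 over 7 genes. Cish, a STAT5-induced inhibitor, had a log2 ratio of -0.43 (0.07) in ΔCdk Rb-HA MEFs and lay within 0.03 of parental on the other arrays. Socs1 was undetected throughout.

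STAT3 response genes were spread around 0, with medians of -0.03, -0.13 and -0.19 over 17 genes on the TAT-Cre arrays in the order used above. Saa3, an acute-phase serum amyloid gene, was the exception upward, with intensities of 122 in parental MEFs, 169 after Rb deletion, 212 with WT Rb-HA and 238 with ΔCdk Rb-HA. Its log2 ratios were 0.58 (SE 0.11), 0.96 (0.12) and 1.18 (0.11), past the filter in both infected cultures. Bcl3, an IκB family protein, went the other way in ΔCdk Rb-HA MEFs, at -0.99 (0.13). Vegfa, the angiogenic factor, was lower in Rb-deleted MEFs, at -0.72 (0.07), and lay at -0.52 (0.07) and -0.23 (0.06) on the infected arrays. Junb, Timp1, Pim3 and Bcl2l1 lay within 0.23 of parental on each array. In counts, 1 gene of the 17 was lower in Rb-deleted MEFs, 1 was higher in WT Rb-HA MEFs, and 1 was higher and 1 lower in ΔCdk Rb-HA MEFs. The shares of all genes were 2.98% lower in the first comparison, 0.888% higher in the second, and 2.58% higher and 3.30% lower in the third.

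Inducers and NF-κB response genes, the last list, had medians of -0.31, -0.19 and -0.32 over 18 genes. Of these, 5 were lower than parental after Rb deletion, 2 with WT Rb-HA and 5 with ΔCdk Rb-HA, and none was higher, beside 2.98%, 2.46% and 3.30% of all genes lower. Il1b, the inflammatory cytokine that induces IL-6 in fibroblasts, had an intensity of 115 in parental MEFs and 41.6 to 44.5 on the TAT-Cre arrays, where it was undetected. It was at least 2.97-fold, 2.72-fold and 2.86-fold lower on these arrays in turn. Il1b is also a macrophage product, and the leukocyte markers were lower on the same arrays.

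Il1rap, the accessory chain of the IL-1 receptor, had intensities of 112 in parental MEFs, 70.0 after Rb deletion, 94.9 with WT Rb-HA and 114 with ΔCdk Rb-HA. Its log2 ratios of -0.91 (SE 0.13), -0.33 (0.10) and 0.05 (0.10) were in the order of Il6 among the TAT-Cre arrays. Ptgs2, the gene of cyclooxygenase 2, had the same order at -1.12 (0.13), -0.64 (0.14) and -0.34 (0.14). Tnfaip3, the NF-κB inhibitor A20, lay at -1.30 (0.09), -0.93 (0.09) and -1.17 (0.08), and the chemokine gene Ccl2 at -0.86 (0.07), -0.63 (0.07) and -1.24 (0.07). Nfkbia, which encodes IκBα, passed the filter in ΔCdk Rb-HA MEFs alone, at -0.70 (0.07). Tnfaip3, Ccl2 and Nfkbia thus lay lower in the ΔCdk Rb-HA culture than in the other infected culture, whereas Il6, Il11, Il1rap and Ptgs2 lay higher.

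**Figure D4:**
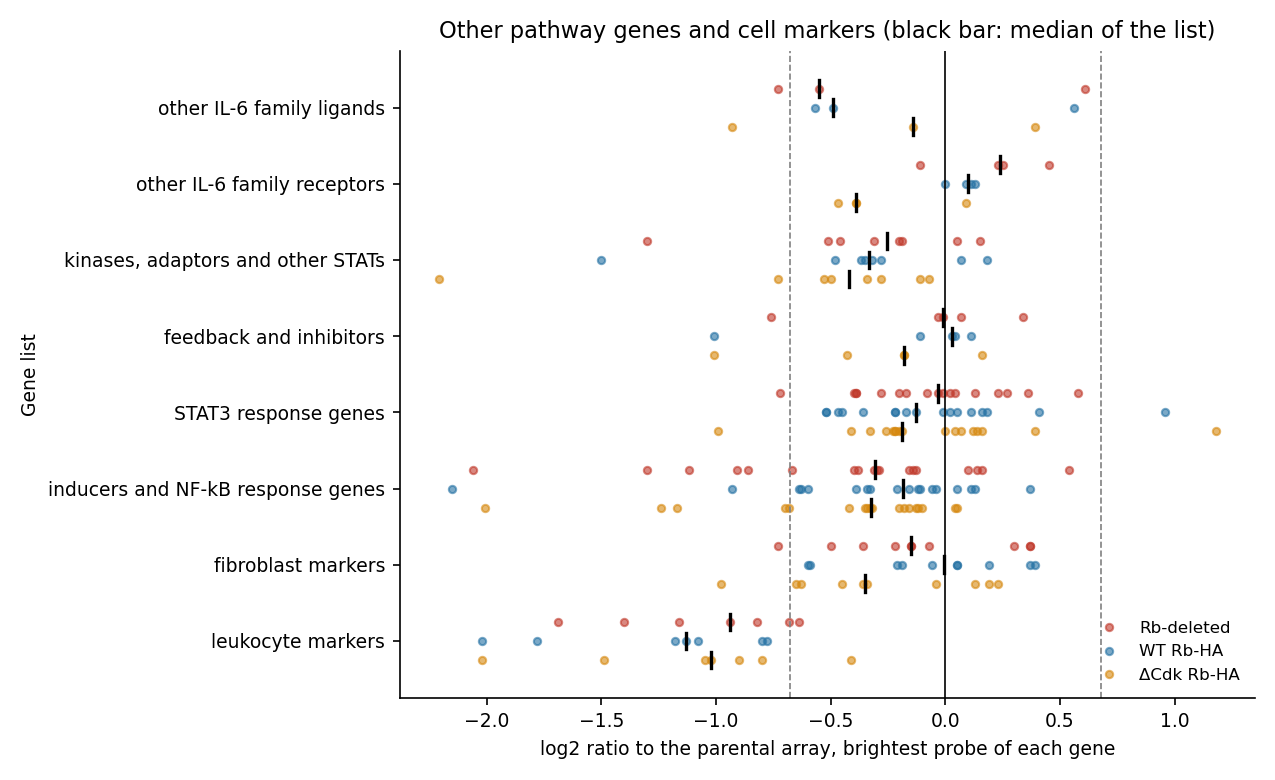
Log2 ratio to the parental array (x axis) of each analysed gene in the 6 further pathway lists and in the fibroblast and leukocyte marker lists (y axis), on the 3 TAT-Cre arrays, with black bars at list medians and dashed lines at 1.6-fold. STAT3 response genes straddle 0 with medians of -0.03, -0.13 and -0.19, and all 7 leukocyte markers lie below 0 on each array.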

How the data were processed

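Total RNA from 4 cultures was hybridised to Illumina MouseWG-6 v2.0 BeadChips. The authors deposited a summarized linear intensity for each probe, not normalized between arrays, with a detection p-value in steps of 1 in 936, the bead standard error as an intensity, and the count of beads. Genome positions in the deposited annotation carry no stated build and were left out. Starting from these intensities, background was corrected with limma 3.58.1 (R 4.3.3) with normexp informed by the detection p-values, with offset 16, then quantile normalization and log2. Probes detected at p below 0.01 on any array were kept, giving 17746 probes and 12616 genes, each represented by its brightest probe. Tables were handled in Python 3.11.15. Symbols turned into dates by a spreadsheet were restored for 34 of 44 probes. The bead standard error was carried through each array's mapping from intensity to log2 value.

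The members and lists were chosen with earlier results of these data known, so no list is independent support. Individually named were all member probes, list genes past 1.6-fold against parental (up to 6 per list), the 5 genes nearest to Il11 and to Il6, and Rb1. Some genes that this rule picks are not reported here. Other genes of the lists are named to give a list's range, or, for Jun and Fos, because they form AP-1. They were chosen after their values were seen, as were the promoter motifs. Alternatives changed the background correction, the offset, the scaling, the detection filter, the probes per gene and the fold threshold. The calculation of ratios was checked on simulated data with known changes.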

Additional observations from a re-analysis of the deposited data

Results flagged for a closer look

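Il11 moved in opposite directions against the same parental array, which is also why the family was examined. From Rb-deleted to ΔCdk Rb-HA MEFs its log2 ratio to parental differed by 1.67, and from WT Rb-HA to ΔCdk Rb-HA MEFs it differed by 0.90. Both ratios of each pair were larger than 2 bead SE. Neither difference was tested, since each condition has 1 array, and the 3 ratios share the parental array.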

How the results depend on the processing

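No paired analysis was possible because each condition has a single array. The Il11 log2 ratios kept their sign in all 6 alternatives, at -1.02 to -0.94 in Rb-deleted, -0.30 to -0.20 in WT Rb-HA and 0.60 to 0.69 in ΔCdk Rb-HA MEFs compared to parental, and at 1.62 to 1.67 between ΔCdk Rb-HA and Rb-deleted MEFs. Changing the detection filter or averaging probes could not alter these ratios, because Il11 has a single probe, detected on every array. With median scaling Il11 no longer passed 1.6-fold in ΔCdk Rb-HA over parental, and the number of members past it dropped from 2 to 1, which left Osmr. Averaging a gene's detected probes raised the number past the filter in Rb-deleted over parental from 1 to 2, with Lif added at -0.69, a mean that includes the Lif probe at position 160, undetected in Rb-deleted MEFs, while the Lif probes detected throughout lay at -0.47 and -0.68. A 1.5-fold threshold added Il6 in Rb-deleted over parental and in ΔCdk Rb-HA over Rb-deleted, for 2 members in each. Over the alternatives these Il6 log2 ratios ranged from -0.66 to -0.50 and from 0.51 to 0.67, in that order. A 2-fold threshold left 0 members past it in Rb-deleted over parental, ΔCdk Rb-HA over parental, WT Rb-HA over Rb-deleted and ΔCdk Rb-HA over WT Rb-HA, and Il11 alone in ΔCdk Rb-HA over Rb-deleted. No member ratio past 1.6-fold reversed in any alternative. Of the 54 ratios of members over the 6 array pairs, 50 kept one sign, and the other 4, of Il6, Clcf1 and Socs3, lay within 0.03 of 0 in the main setting. Averaging probes also moved Stat3 in ΔCdk Rb-HA over parental from -0.25 to -0.04. Dim probes limit Il6, Lif, Clcf1 and Il6st most, and variation between cultures is not measured at all.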
